A study of Sus scrofa with 8 samples.

Results

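The genes described are the solute carriers of the pig oviduct lining, taken as every probe set of the Affymetrix Porcine array that the platform annotation pairs with a single symbol made of SLC, a family number, the letter A and a member number. The rule found 163 probe sets for 111 genes among 24123 probe sets on the array, of which 23999 were tested. The annotation names 6765 genes by single symbols in all. Of the 111 genes, 108 encode carriers from 37 families. The other 3, SLC9A3R1, SLC9A3R2 and SLC2A4RG, match by their letters alone and encode scaffold proteins and a transcriptional regulator. They were kept and are named as such. A further 5 probe sets were left out because the annotation lists more than 1 symbol for them, of which 3 repeat SLC23A3 and the other 2 pair SLC12A8 with EIF3G.

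The arrays come from 4 crossbred Landrace × Large White sows, each carrying pre-ovulatory follicles. In every sow one oviduct was inseminated with Y-bearing spermatozoa (Y-spermatozoa, 4 arrays) and the contralateral oviduct with X-bearing spermatozoa (X-spermatozoa, 4 arrays), both flow-sorted and pooled from several boars, and cells scraped from the mucosa were taken 24 h later. The labels number the arrays of each group 1 to 4 without naming a sow, and arrays of one number were taken as the oviducts of one sow. The uterine horns were stapled to keep the populations apart, every oviduct in these samples had received sorted and stained spermatozoa, and none was without spermatozoa. The comparison asks whether the oviduct responds differently to the sex chromosome that spermatozoa carry, so the differences below are between both kinds of spermatozoa and not against an empty oviduct.

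Solute carriers are membrane proteins that move small molecules across cell and organelle membranes, either down a gradient or coupled to sodium, protons or an exchanged solute. In the oviduct, secretory and ciliated epithelial cells set the composition of the luminal fluid in which gametes and early embryos live, and carriers for ions, amino acids, sugars, lactate and nucleosides take part in this. Members of one family usually share a fold and a class of substrate, whereas the tissue and membrane in which each works can differ widely.

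Signals are given as the deposited linear values of each array. Differences are log2 values after quantile normalization, Y-spermatozoa minus X-spermatozoa, with a standard error (SE) from limma and n = 4 arrays a group. A probe set was called when its limma p-value was under 0.05 without adjustment, and adjusted values are Benjamini-Hochberg values over all 23999 probe sets. As a background level, the 95th percentile of 64 reporter probe sets, which have no pig target, was taken on each array. It lay between 8.395 and 12.48 and averaged 10.67. Array medians ran between 38.7 and 41.2. Because a signal depends on the probe set as well as on the transcript, the signals of different genes do not rank their transcript amounts.

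The scraped cells carried markers of the oviduct epithelium. All 7 measured genes of 8 listed for secretory epithelium were above background on all 8 arrays, among them OVGP1, the oviduct-specific glycoprotein, at 8674 ± 676 with Y-spermatozoa and 7159 ± 1170 with X-spermatozoa (SD, n = 4 each). The summed signal of this list was 16485.4 to 17286.8 on Y-spermatozoa arrays and 13723.2 to 16336.1 on X-spermatozoa arrays, so the deposited sums did not overlap, while none of the 7 genes was called after normalization. Smooth muscle markers were also present, with summed signals of 1129.0 to 3803.6 on Y-spermatozoa arrays and 1622.9 to 4609.1 on X-spermatozoa arrays. Of 4 measured spermatozoa markers, 0 were above background on every array, although TNP2 was on 7 and PRM2 on 6 of the 8. PRM1, another of them, was called higher with Y-spermatozoa at 2.35 ± 0.819, against 1.05 ± 0.173 with X-spermatozoa (SD, n = 4 each), all under background. PRM2, ODF1 and TNP2 went the other way, with log2 differences of -0.45, -0.45 and -0.10, and were not called. The leukocyte marker PTPRC was also called higher, at 11.6 ± 3.06 with Y-spermatozoa and 7.15 ± 1.75 with X-spermatozoa (SD, n = 4 each), and was above background on 2 arrays. The other measured leukocyte markers were not called and went both ways. CD3E and CD2 had log2 differences of -0.21 and -0.71, and CD163 and CD14 of 0.06 and 0.36. The part of these markers in the differences of the carriers was not tested. The 18 hybridisation control probe sets averaged 9.94 ± 0.106 on the log2 scale on Y-spermatozoa arrays and 9.73 ± 0.0675 on X-spermatozoa arrays (SD, n = 4 each). They ran from 9.805 to 10.057 on Y-spermatozoa arrays and from 9.653 to 9.81 on X-spermatozoa arrays, which nearly separates the groups. Their part in the differences was examined only by a fit that carries them as a covariate, without the sow as a block. Because the controls largely follow the groups, that fit cannot tell their part from that of the spermatozoa. In bulk samples like these, fewer cells of a type and less RNA per cell cannot be told apart.

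Much of the repertoire was measurable. Of the 163 probe sets, 106 were above background on all 8 arrays, which is 65.0% of the members and 65.0% of all tested probe sets. They cover 81 genes. A further 33 were above background on some arrays and 24 on none. The median signal of the members was 40.8, against 40.4 for all tested probe sets. With 9 probe sets of 7 genes over 500 and 33 probe sets of 28 genes between 100 and 500, the strongest signals came from carriers of very different substrates.

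SLC44A4, a choline-like carrier that transports thiamine pyrophosphate in human cells, had the highest mean signal, with 1742.8, 1317.8, 1785.7 and 1612.0 on the Y-spermatozoa arrays of sows 1 to 4, against 1452.3, 1439.4, 1510.7 and 1582.7 on the X-spermatozoa arrays. The groups overlapped. The scaffold gene SLC9A3R1, whose product anchors transporters beneath the apical membrane, followed at 1527 ± 101 with Y-spermatozoa and 1416 ± 153 with X-spermatozoa (SD, n = 4 each).

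Mitochondrial carriers of the SLC25 family came next. SLC25A6, an adenine nucleotide exchanger, had 1316 ± 427 with Y-spermatozoa and 1143 ± 166 with X-spermatozoa, and SLC25A3, the phosphate carrier, had 1176 ± 215 and 1028 ± 107 in the same order (SD, n = 4 each). SLC25A5, the X-linked adenine nucleotide exchanger, was among the most even members, with 416.4, 481.2, 446.9 and 475.3 on Y-spermatozoa arrays, against 467.7, 434.3, 425.6 and 479.4 on X-spermatozoa arrays. Its difference had a 95% interval of -0.23 to 0.23. SLC25A1, which exports citrate from mitochondria, averaged 423 ± 109 with Y-spermatozoa and 426 ± 130 with X-spermatozoa (SD, n = 4 each).

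Peptide, phosphate and nucleoside carriers of the apical membrane were also strong. SLC15A2, the high-affinity proton-coupled peptide carrier, had 1255.1, 864.9, 858.6 and 898.4 with Y-spermatozoa, against 1112.2, 986.5, 807.2 and 1144.1 with X-spermatozoa. All 3 of its probe sets had a mean signal over 500, and their differences were -0.10, -0.04 and 0.03. SLC34A2, a sodium-phosphate cotransporter of epithelia, averaged 949 ± 248 with Y-spermatozoa and 930 ± 229 with X-spermatozoa, and SLC28A3, the concentrative nucleoside carrier of broad specificity, 785 ± 318 with Y-spermatozoa and 797 ± 227 with X-spermatozoa (SD, n = 4 each).

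The 12 genes with the highest mean signal were completed by SLC38A1, SLC17A1 and SLC39A7. SLC38A1, a sodium-coupled neutral amino acid carrier that takes up glutamine, averaged 392 ± 93.8 with Y-spermatozoa and 361 ± 61.9 with X-spermatozoa (SD, n = 4 each). The differences of its 3 probe sets, from the brightest to the dimmest, were 0.10 (SE 0.214), 0.06 (SE 0.163) and -0.33 (SE 0.165), and none was called. SLC17A1, known in the kidney as a carrier of organic anions and urate, averaged 340 ± 238 and 340 ± 164, and SLC39A7, which releases zinc from the endoplasmic reticulum, 345 ± 26.8 and 330 ± 53.4, each with Y-spermatozoa before X-spermatozoa (SD, n = 4 each). The log2 difference of SLC17A1 was -0.35 (SE 0.758), and it was lower with Y-spermatozoa in 3 of 4 sows. None of the 12 was called, and the adjusted p of each was 1.0 in limma.

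**Figure D1:**
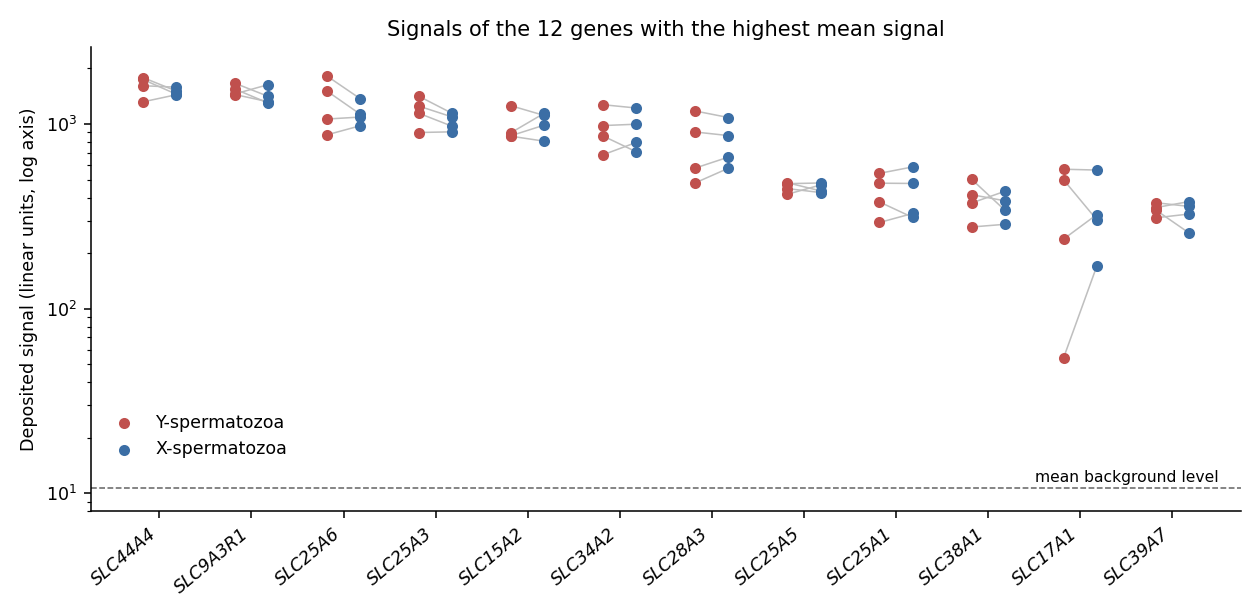
Deposited signals (log axis, linear units) of the 12 genes with the highest mean signal, 1 point per array, with Y-spermatozoa to the left of X-spermatozoa and lines joining the oviducts of a sow. The groups overlap for every gene drawn, and SLC17A1 spans 54.2 to 569.1.

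At the other end, 11 genes had no probe set above background on any array. SLC2A2, the low-affinity glucose carrier of liver and beta cells, had 1.9, 1.1, 6.4 and 3.3 with Y-spermatozoa, against 1.2, 1.7, 3.5 and 1.2 with X-spermatozoa. The vitamin C carriers SLC23A1 and SLC23A2 also lay below background on all arrays, SLC23A1 at 0.5 to 1.7 with Y-spermatozoa and 0.4 to 1.9 with X-spermatozoa over both its probe sets. The other 8 were SLC1A2, SLC1A6, SLC9A4, SLC10A1, SLC15A1, SLC22A2, SLC25A51 and SLC26A3, of which SLC15A1 is the intestinal peptide carrier and SLC10A1 the bile acid carrier of liver. These probe sets give no fold.

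Few solute carriers differed between Y-spermatozoa and X-spermatozoa. Of the 163 probe sets, 4 (2.45%) were called, against 3.58% of all tested probe sets. Of these, 1 was higher with Y-spermatozoa, against 1.65% of all tested probe sets, and 3 were lower, against 1.94%. No member passed after adjustment, the smallest adjusted p being 1.0 in limma, and of all tested probe sets 0 passed, with 860 past the unadjusted threshold and 2 past adjustment in a plain pooled test. The median difference was -0.0046 over the members and 0.00396 over all tested probe sets. Of the 106 probe sets above background on every array, 105 lay within 0.5 of 0 on the log2 scale, between -0.51 for SLC25A46 and 0.39 for SLC16A3. Their standard errors ran between 0.0931 and 0.758 with a median of 0.181.

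**Figure D2:**
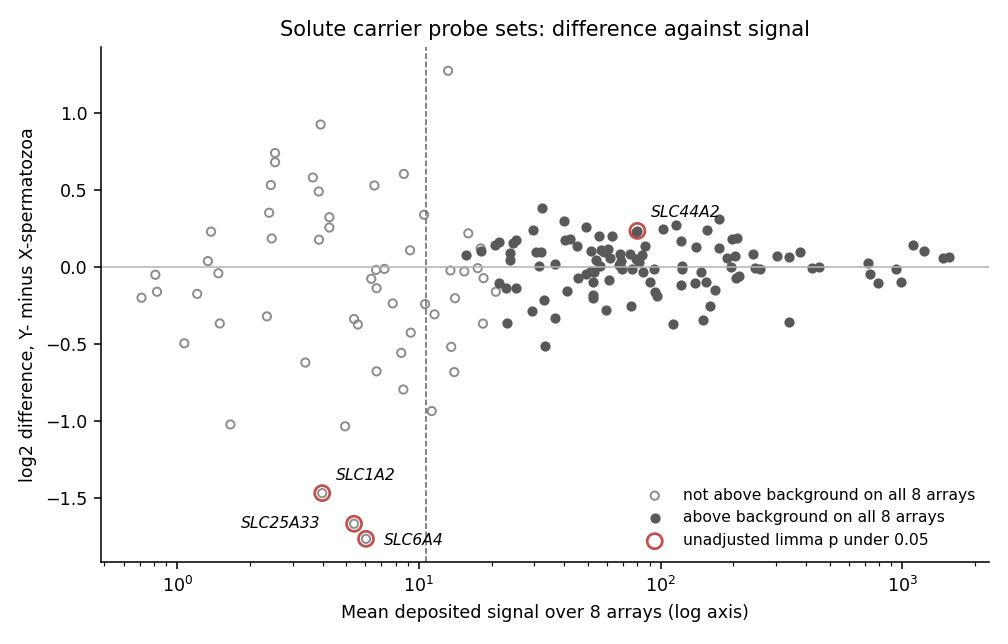
Log2 difference (Y-spermatozoa minus X-spermatozoa) of each of the 163 probe sets against its mean deposited signal (log axis), with filled points above background on all 8 arrays, a dashed line at the mean background level of 10.67 and rings around the 4 called probe sets. The differences widen below the background line, where 3 of the 4 called probe sets lie.

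The called probe set with a measurable signal belonged to SLC44A2, a choline transporter-like protein of the plasma membrane and of mitochondria. It had 86.7, 82.3, 91.2 and 84.9 with Y-spermatozoa, against 75.2, 71.1, 79.1 and 70.6 with X-spermatozoa. Every Y-spermatozoa array lay above every X-spermatozoa array, which held for this probe set alone among the members (0.613%) and for 2.05% of all tested probe sets. The difference was 0.24 (SE 0.093, 95% interval 0.02 to 0.45), a 1.18-fold higher signal with Y-spermatozoa, the same way in each of the 4 sows, with an adjusted p of 1.0 in limma. An exact permutation of the group labels (two-sided) gave p = 0.0286, the smallest that 4 against 4 arrays allow and the value that groups without overlap always give. It ignores the pairing by sow, and an exact permutation within the 4 pairs cannot go below a two-sided p of 0.125.

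The other probe sets of SLC44A2 did not share this pattern. One of nearly the same brightness had 87.3, 77.9, 84.3 and 95.9 with Y-spermatozoa, against 83.6, 85.5, 112.3 and 93.9 with X-spermatozoa, a difference of -0.09 (SE 0.13). The dimmest had a difference of 0.10 (SE 0.203). The call was lost under the deposited scaling, where the difference was 0.22 (SE 0.096). It was lost in 10 of 12 fits that left out an array or a sow, with differences of 0.21 to 0.26, and kept without array X3 or without array Y2. When the hybridisation controls entered as a covariate, the difference was 0.22 and was not called, with an SE of 0.169 against 0.093 without them. The controls nearly separate the groups, so this fit cannot tell their part from that of the spermatozoa.

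The 3 called probe sets that were lower with Y-spermatozoa all had group means under the background level. SLC6A4, the serotonin carrier, had 1.0, 1.8, 10.1 and 1.5 with Y-spermatozoa, against 10.3, 8.5, 8.2 and 6.9 with X-spermatozoa. SLC1A2, the glutamate carrier of glia, had 3.2, 3.5, 1.1 and 0.7 with Y-spermatozoa, against 6.1, 6.2, 3.2 and 7.8 with X-spermatozoa. The second probe set of SLC25A33, a pyrimidine nucleotide carrier, had 2.0, 2.9, 2.9 and 0.9 with Y-spermatozoa, against 4.1, 13.7, 13.6 and 3.0 with X-spermatozoa. No fold is given for them. The brighter probe set of SLC25A33 had 312 ± 30.8 with Y-spermatozoa and 296 ± 34.7 with X-spermatozoa (SD, n = 4 each) and a difference of 0.07 (SE 0.129), so both probe sets of the gene differed in sign. Leaving out an array or a sow ended the call in 6 of 12 fits for SLC1A2, 9 of 12 for SLC6A4 and 4 of 12 for SLC25A33.

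More probe sets were called in the fit that compares both oviducts within each sow. With the sow as a block, 9 of the 163 probe sets (5.52%) were called, against 5.09% of all tested probe sets, and the smallest adjusted p among the members was 0.897 in limma. Of the 9, 4 were above background on all 8 arrays. They were SLC44A2 and, called with the block but not without it, SLC16A3, SLC37A4 and SLC30A5. With the sow as a random block, which also gave 9 calls, 5 of the 9 were shared, and of these 4 genes only SLC44A2 was called.

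SLC16A3 encodes the lactate exporter of glycolytic cells. It had 35.6, 24.6, 44.2 and 39.8 with Y-spermatozoa, against 29.3, 19.8, 35.0 and 29.7 with X-spermatozoa. The Y-spermatozoa oviduct was the higher one in each sow although the groups overlapped. Its difference of 0.39 had an SE of 0.23 without the block and 0.085 with it, and the call held in all 4 fits that left out a sow, where the difference lay between 0.37 and 0.41. It was not called with the sow as a random block (SE 0.173). With the hybridisation controls as a covariate and no block, the difference was 0.26 (SE 0.413) and was not called. As SLC16A3 was not called without the block either, this missing call does not bear on the controls. Its 4 sows differed among themselves as well, with means of 32.5, 22.2, 39.6 and 34.8.

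SLC37A4, which carries glucose 6-phosphate into the endoplasmic reticulum, was measured by a pair of probe sets that were both higher with Y-spermatozoa in every sow. The called one had 149.3, 133.8 and 119.0 with Y-spermatozoa in sows 1, 3 and 4, against 126.2, 112.0 and 88.4 with X-spermatozoa, and it was higher in sow 2 as well. The group means were 127 ± 19.0 with Y-spermatozoa and 105 ± 17.1 with X-spermatozoa (SD, n = 4 each), a difference of 0.28 (SE 0.097 with the block). The brighter one had 169 ± 36.5 with Y-spermatozoa and 141 ± 15.8 with X-spermatozoa (SD, n = 4 each), a difference of 0.24 (SE 0.108 with the block) that was not called. Leaving out any 1 sow ended the call of the dimmer probe set, with differences of 0.22 to 0.32. It was not called with the random block (SE 0.126). With the hybridisation controls as a covariate and no block, its difference was 0.17 (SE 0.287). It was not called there, as it was not without the block. The difference of the brighter one changed sign to -0.05 (SE 0.293) when the hybridisation controls entered as a covariate.

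SLC30A5, which brings zinc into the Golgi apparatus, was the only one of the 4 with less signal after Y-spermatozoa. Its called probe set had 103.5, 103.0, 69.8 and 113.3 with Y-spermatozoa, against 131.9, 127.7, 82.5 and 171.4 with X-spermatozoa, a difference of -0.37 (SE 0.106 with the block). A second probe set of similar brightness was also lower in every sow, at 89.0, 106.5, 60.2 and 106.2 with Y-spermatozoa, against 110.0, 116.8, 73.3 and 113.0 with X-spermatozoa, and was not called (-0.19). The call ended without sow 1 (-0.37), without sow 2 (-0.39) and without sow 4 (-0.29), and with the sow as a random block (SE 0.199).

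**Figure D3:**
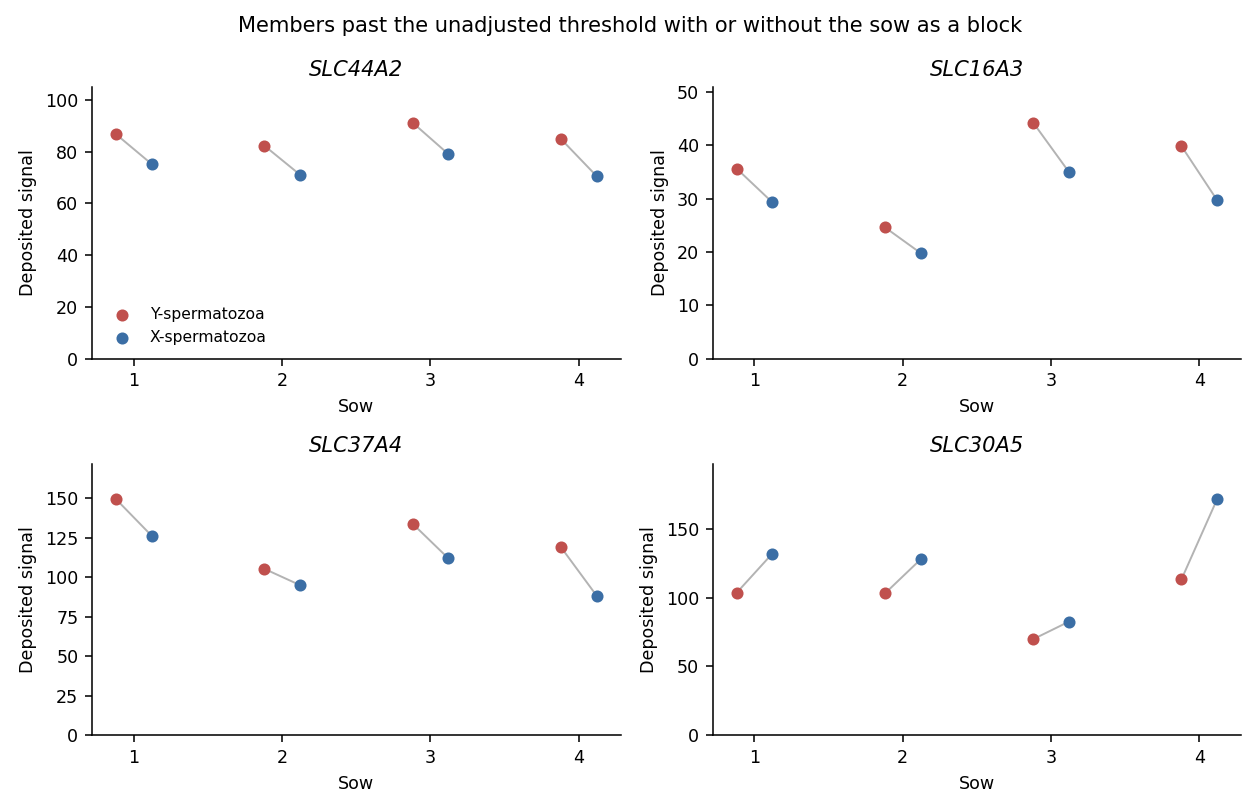
Deposited signals of the called probe sets of SLC44A2, SLC16A3, SLC37A4 and SLC30A5 by sow, with Y-spermatozoa to the left of X-spermatozoa and a line joining the oviducts of a sow. Within every sow SLC44A2, SLC16A3 and SLC37A4 are higher, and SLC30A5 lower, with Y-spermatozoa.

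The remaining calls with the block were SLC1A2, SLC6A4 and the dim probe set of SLC25A33, described above, and SLC5A5 and a dim probe set of SLC7A7. SLC5A5, the sodium-iodide cotransporter, had 19.5, 14.0, 7.6 and 28.0 with Y-spermatozoa, against 4.9, 10.2, 2.3 and 19.5 with X-spermatozoa. It was above background on 3 Y-spermatozoa arrays and 1 X-spermatozoa array, and no fold is given because the X-spermatozoa mean was below background. The dim SLC7A7 probe set averaged 6.50 with Y-spermatozoa and 10.8 with X-spermatozoa. The brighter one, for a light chain that exports cationic amino acids, averaged 89.9 ± 5.45 and 82.6 ± 6.15 in the same order (SD, n = 4 each) and differed in sign from it.

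On the normalized values, the Y-spermatozoa oviduct was the higher one of every sow in 9 probe sets (5.52%), against 6.49% of all tested probe sets, and the lower one of every sow in 6 (3.68%), against 6.67%. Besides those above, the higher ones included SLC38A10, a putative amino acid carrier, with 209.9, 196.5, 194.6 and 168.3 with Y-spermatozoa, against 134.7, 192.2, 154.1 and 142.1 with X-spermatozoa. Its difference was 0.31 (SE 0.144) and was not called with or without the block. It was called with the sow as a random block (SE 0.123), and with the hybridisation controls as a covariate it was 0.10 (SE 0.24) and not called. SLC41A1, a magnesium carrier, and SLC50A1, a sugar carrier, had differences of 0.27 (SE 0.174) and 0.19 (SE 0.217), and a second probe set of the folate carrier SLC46A1 had 0.16 (SE 0.125). The deposited signal of SLC50A1 in sow 3 was 154.7 with Y-spermatozoa and 157.0 with X-spermatozoa, so its order there rests on the normalization, as does that of SLC46A1 in sow 2, at 20.6 and 21.6. The lower ones included 1 of 2 probe sets of SLC25A37, the mitochondrial iron importer, with -0.12 (SE 0.145), and 1 of 4 of SLC33A1, the acetyl-CoA carrier of the endoplasmic reticulum, with -0.25 (SE 0.176).

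Grouped into transport classes by family number, the calls were few in every class. The 13 probe sets of the vitamin, choline and haem families included 1 called (7.69%), that of SLC44A2. The 27 of the SLC25 family included 1 (3.7%), the dim one of SLC25A33. The 29 probe sets of 19 genes in the amino acid families, which also hold the serotonin carrier SLC6A4, included 2 called probe sets (6.9%, against 3.58% of all tested probe sets). These were SLC1A2 and SLC6A4, both dim and both lower with Y-spermatozoa. Of the 29, 15 were above background on every array. The cationic amino acid carrier SLC7A1 averaged 133 ± 8.68 with Y-spermatozoa and 144 ± 19.0 with X-spermatozoa, and SLC1A5, which exchanges neutral amino acids such as glutamine, 88.8 ± 16.9 with Y-spermatozoa and 99.7 ± 15.6 with X-spermatozoa (SD, n = 4 each). SLC3A2, the heavy chain that brings SLC7 light chains to the membrane, had 53.2, 44.9, 38.3 and 50.4 with Y-spermatozoa, against 41.5, 47.1, 47.2 and 37.2 with X-spermatozoa, and the groups overlapped.

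Among the 22 probe sets of 17 genes in the sugar families, which also hold vitamin and iodide carriers, 15 were above background on every array and 0 were called. SLC2A1, the widespread basal glucose carrier, averaged 209 ± 41.1 with Y-spermatozoa and 197 ± 32.7 with X-spermatozoa. SLC2A3, a high-affinity glucose carrier, averaged 80.7 ± 20.4 and 76.7 ± 10.6 in the same order, and SLC5A6, the sodium-dependent multivitamin carrier, 181 ± 28.3 and 169 ± 42.8 (SD, n = 4 each). Probe sets of the insulin-responsive carrier SLC2A4 and the fructose carrier SLC2A5 were above background on some arrays only.

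The 27 probe sets of 21 SLC25 genes, grouped as mitochondrial carriers, also hold the peroxisomal carrier SLC25A17. Of the 27, 22 were above background on every array, of which 11 had positive and 11 negative differences. The lowest difference among all members measured on every array, -0.51 (SE 0.225), was that of SLC25A46, a protein of the outer mitochondrial membrane that takes part in mitochondrial fission and fusion. It had 33.0, 23.6, 29.4 and 21.6 with Y-spermatozoa, against 42.2, 33.7, 30.0 and 53.3 with X-spermatozoa, was lower with Y-spermatozoa in 3 of 4 sows on the normalized values and was not called.

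Of the 14 probe sets of zinc carriers, 13 were above background on every array, and they cover all 8 genes. SLC30A3, a zinc exporter of vesicles, averaged 256 ± 37.2 with Y-spermatozoa and 258 ± 23.8 with X-spermatozoa, and SLC39A1, a zinc importer of the plasma membrane, 146 ± 27.8 with Y-spermatozoa and 148 ± 11.3 with X-spermatozoa (SD, n = 4 each). None of the 14 was called without the block. Of the 13 probe sets for iron, copper and other metals, 7 were above background on every array, among them that of the copper importer SLC31A1 at 248 ± 40.3 with Y-spermatozoa and 235 ± 34.2 with X-spermatozoa (SD, n = 4 each), and 0 were called.

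The 5 well measured probe sets for nucleosides, nucleotide sugars and acetyl-CoA (SLC28A3, SLC35A3 and 3 of SLC33A1) all had negative differences, between -0.34 and -0.06, and none was called. Since 3 of them measure 1 gene they are not separate observations. Bicarbonate, chloride and sulphate carriers had the opposite sign in all 4 well measured probe sets, between 0.02 and 0.10, and none was called. Here 2 of the 4 measure SLC26A11 and are not separate observations. The differences of SLC4A4 (0.02, SE 0.183), SLC4A2 (0.05, SE 0.287) and the brighter SLC26A11 probe set (0.08, SE 0.23) were smaller than their SE. SLC4A4, the electrogenic sodium bicarbonate cotransporter, had 29.1, 35.1, 33.1 and 49.6 with Y-spermatozoa, against 34.0, 36.8, 33.8 and 41.9 with X-spermatozoa.

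**Figure D4:**
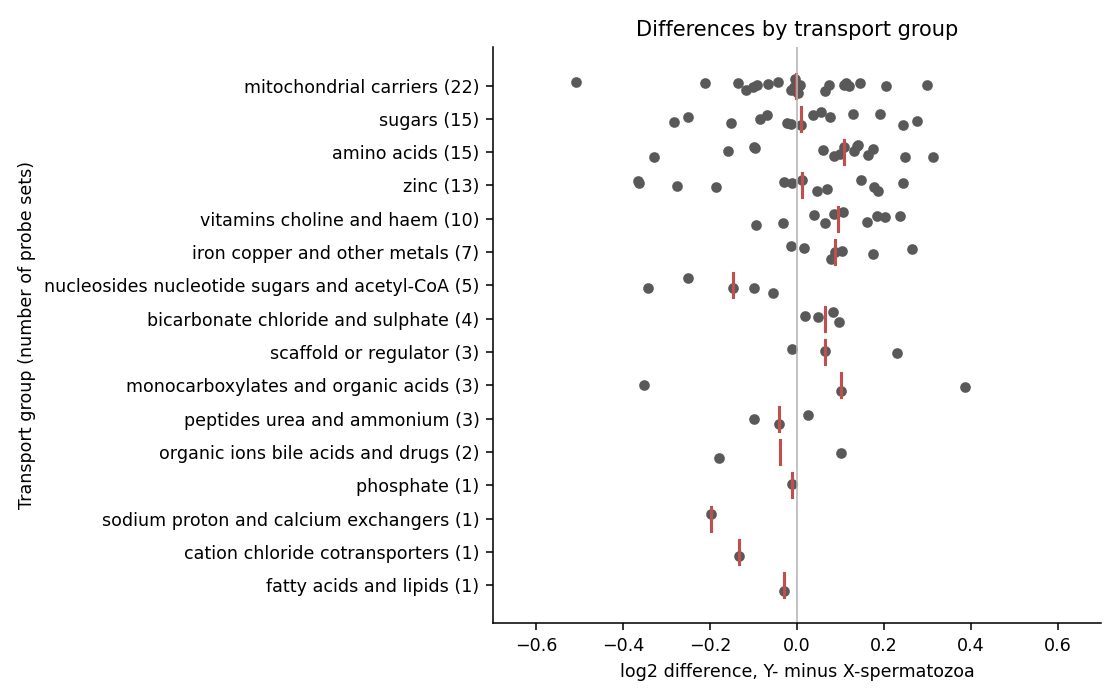
Log2 differences (Y-spermatozoa minus X-spermatozoa) of the 106 probe sets above background on all 8 arrays, by transport group, each point a probe set and each red line the group median. Most groups lie on both sides of 0, and 105 of the 106 points are within 0.5 of it.

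Different probe sets of a gene often differed in sign. Of 21 genes with at least 2 probe sets above background on every array, 10 had the same sign in all of them. The X-linked members, SLC6A14, SLC6A8, SLC25A14 and SLC25A5 in the Sscrofa11.1 gene table, had 6 probe sets, of which 0 were called, and a median difference of 0.0441. In SLC25A14, an uncoupling protein of mitochondria, the differences of both probe sets were 0.30 (SE 0.189) and -0.21 (SE 0.16).

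Of 26 genes listed as partners and regulators of these carriers, 17 were measured, 1 (5.88%) was called higher with Y-spermatozoa, against 1.65% of all tested probe sets, and 0 lower, against 1.94%. The called one was WNK1, a kinase that regulates cation chloride cotransporters, at 15.8 ± 1.97 with Y-spermatozoa and 11.2 ± 2.76 with X-spermatozoa (SD, n = 4 each), and it was above background on 5 of 8 arrays. BSG, the chaperone of lactate carriers, averaged 232 ± 31.6 with Y-spermatozoa and 209 ± 19.7 with X-spermatozoa, and ATP1B1, the sodium pump subunit, 2707 ± 294 with Y-spermatozoa and 2479 ± 247 with X-spermatozoa (SD, n = 4 each). Neither was called.

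Some carriers differed between the sows, though only at the unadjusted threshold. In the fit with both terms, 32 of the 163 probe sets (19.6%) differed between the 4 sows at an unadjusted p under 0.05 in limma, against 14.2% of all tested probe sets. Without sow 4 it was 20 members (12.3%), against 12.6% of all tested probe sets. Without sow 1 it was 34 (20.9%, against 11.8%), without sow 2 it was 24 (14.7%, against 11.1%) and without sow 3 it was 25 (15.3%, against 11.7%). After adjustment 0 members passed, the smallest adjusted p being 0.154, and 0 of all tested probe sets. This comparison was added after the values had been seen. Both arrays of a sow may share handling as well as an animal, which cannot be told apart. Of the 106 probe sets above background on every array, 19 were past the unadjusted threshold, and 4 had sow means more than 2-fold apart. The matching shares of all tested probe sets were not computed for this limit. In a fit restricted to probe sets above background, a wider set, 29 of 120 members (24.2%) passed, against 20.4% of all those tested. In one restricted to those above the median signal, 32 of 82 members (39.0%) passed, against 29.4%.

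SLC28A3 had the smallest p of these 19. Both oviducts of sow 1 were high (1176.0 with Y-spermatozoa, 1084.1 with X-spermatozoa) and so were those of sow 3 (905.2 and 865.6), while those of sow 2 (480.2 and 576.3) and sow 4 (577.6 and 662.0) were low. The sow means were 1130, 528, 885 and 620 for sows 1 to 4. SLC5A1, the sodium-glucose cotransporter of the apical membrane, ran the other way, with sow means of 50.1, 97.9, 50.7 and 78.4. SLC35A3, which carries UDP-N-acetylglucosamine into the Golgi apparatus, had sow means of 123, 187, 143 and 213. These 3 genes passed the unadjusted threshold in all 4 fits that left out a sow.

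SLC25A17, a peroxisomal carrier of cofactors, had sow means of 174, 205, 145 and 259, SLC25A1 had 345, 477, 310 and 563, and SLC34A2 had 783, 1246, 739 and 989. In each, sows 2 and 4 were above sows 1 and 3. SLC17A1 had the widest spread, with sow means of 401, 566, 281 and 112 and its lowest value in sow 4 (54.2 with Y-spermatozoa and 169.6 with X-spermatozoa). Without any 1 sow, SLC25A17 passed in 2 of 4 fits, SLC25A1 in 3, and SLC34A2 and SLC17A1 in 1 each.

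Cell type markers differed between the sows too. The summed signal of the smooth muscle list was 1376, 4077, 2907 and 3128 in sows 1 to 4, with ACTA2, the smooth muscle actin, at 973, 2961, 2130 and 2288. That of the stromal list was 3820, 6021, 4161 and 5298, of the secretory list 15360, 16411, 15627 and 15593, and of the ciliated list, with 2 of 7 genes measured, 1264, 1228, 1339 and 942. Their part in the sow differences of the carriers was not tested.

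**Figure D5:**
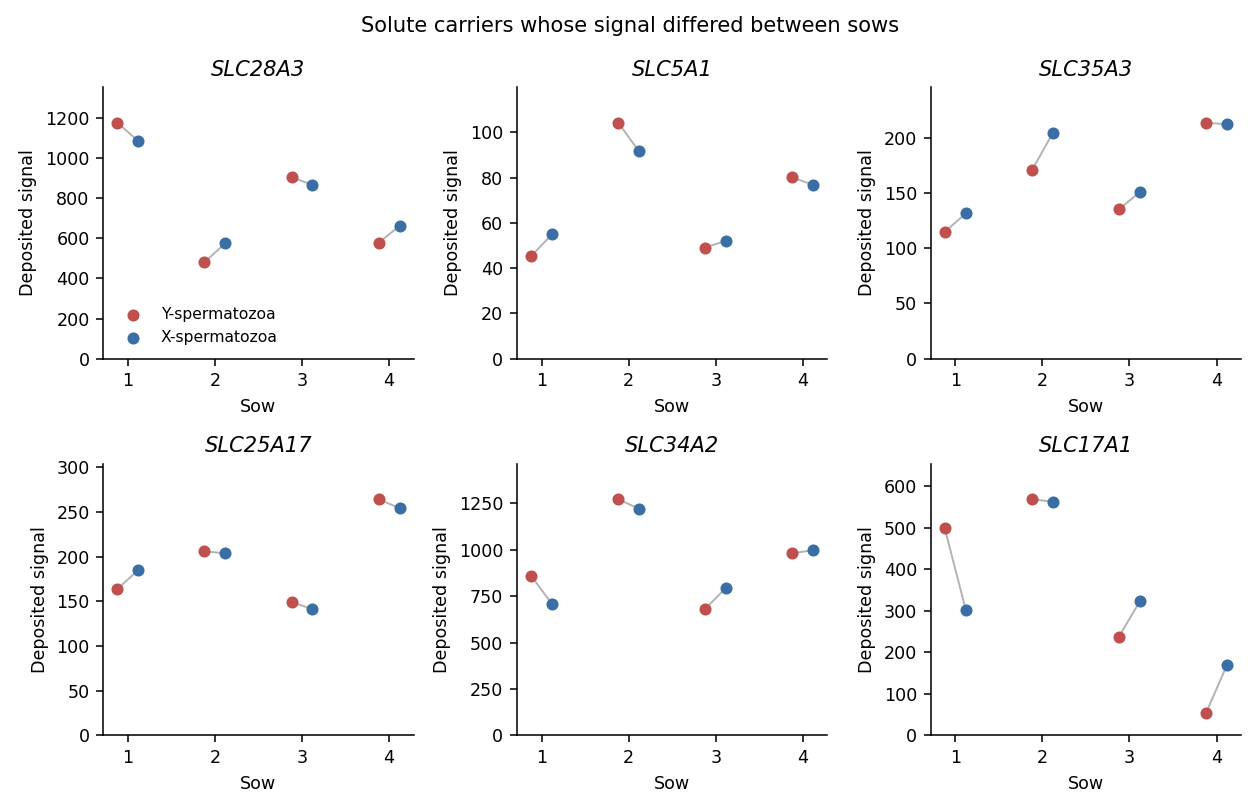
Deposited signals of 6 solute carriers by sow, with Y-spermatozoa to the left of X-spermatozoa and a line joining the oviducts of a sow. In SLC28A3, SLC5A1, SLC35A3, SLC25A17 and SLC34A2 the oviducts of a sow lie closer to each other than the highest and lowest sows do, and SLC17A1 is lowest in sow 4.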

How the data were processed

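RNA of scraped oviduct cells from 4 sows (Y-spermatozoa and X-spermatozoa oviducts, 24 h after insemination) was hybridised to 1 array per oviduct. The authors deposited a linear intensity for each probe set and array, computed with Microarray Suite (MAS5 version 5.1), after scaling every array to a common trimmed mean. The methods describe RMA, which cannot be run on summarized signals. Detection calls were not used here, and the number of arrays limits the precision. Here 124 AFFX control probe sets were left out, signals were quantile normalized, a floor of 1 was applied, and the log2 signals of 23999 probe sets were tested with limma (version 3.58.1, R 4.3.3), unpaired, after a trial on simulated data. Python 3.11.15 with matplotlib 3.10.9 drew the figures.

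The titles give replicate numbers 1 to 4 in each group and name no sow, and the descriptions of the Y-spermatozoa arrays carry a further number that is not explained. As the methods state that both oviducts of each sow were used, equal replicate numbers were taken to pair the arrays. The correlation of both arrays' deviations from their group means was 0.132 to 0.187 in the 4 sows, and each array correlated best with the other array of its sow. The sow as a block was an alternative, as were a random block, other scalings, a pseudocount of 16, filters, a trend, array weights, a plain pooled test, and leaving out arrays or sows. The hybridisation controls as a covariate and the test between sows were added after the data had been seen.

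Of the annotated probe sets, 10099 had 1 symbol, 198 several and 13826 none, and 161 of the 163 members matched the pig gene table (Sscrofa11.1) by gene number. The brightest probe set represented a gene. Named genes were the 12 brightest, every called gene, those of one direction in all 4 sows, the brightest of most transport groups, and solute carriers that the study's lists name. The brightest genes of the fatty acid, organic ion and sodium, proton and calcium exchanger groups, SLC27A1, SLC22A5 and SLC9A5, are not described. Of the solute carriers in the study's lists, SLC16A12, SLC25A16, SLC25A22 and SLC37A3 were not analysed here. The genes of the sow comparison, SLC25A46, SLC4A4, SLC3A2 and a few others named for their role, were chosen after their values were seen. The members, gene lists and tests were chosen with earlier results of these data known.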

Additional observations from a re-analysis of the deposited data

Results flagged for a closer look

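Among 326 groups of 4 arrays over the 163 probe sets, 16 held an array whose gap to the nearest other, divided by the range of the group, passed Dixon's critical value for 4 samples. Chance flags about 1 in 20 groups.

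Among probe sets above background on every array, 8 were of this kind. SLC15A2, the peptide carrier, had 1255.1 on the Y-spermatozoa array of sow 1, where the other Y-spermatozoa arrays had 864.9, 858.6 and 898.4. SLC50A1 had 154.7 on the Y-spermatozoa array of sow 3, where the others had 241.0, 234.9 and 247.4. SLC25A30, a mitochondrial carrier, had 15.9 on the Y-spermatozoa array of sow 1, where the others had 23.3, 22.2 and 23.1, and a probe set of SLC39A1 had 109.0 on that of sow 3, where the others had 127.9, 125.5 and 124.9. On X-spermatozoa arrays, SLC1A5 had 76.4 in sow 1 beside 106.8, 106.1 and 109.6, and the brighter SLC7A7 probe set had 73.4 in sow 3 beside 85.9, 85.8 and 85.4. The second SLC30A5 probe set had 73.3 in sow 3 beside 110.0, 116.8 and 113.0. The potassium chloride cotransporter gene SLC12A4 had 31.1 in sow 2 beside 24.4, 24.7 and 25.2.

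The other 8 were in probe sets not above background on every array. On Y-spermatozoa arrays these were SLC6A4 at 10.1 in sow 3 beside 1.0, 1.8 and 1.5, SLC26A6 at 12.7 in sow 1 beside 2.6, 3.2 and 1.9, SLC28A1 at 25.6 in sow 3 beside 3.2, 2.2 and 2.3, and dim probe sets of SLC45A3 at 3.8 and of SLC30A5 at 3.9, both in sow 1. On X-spermatozoa arrays they were the dim SLC7A7 probe set at 11.8 in sow 2 beside 10.3, 10.5 and 10.4, a probe set of SLC35A4 at 11.4 in sow 2 beside 23.8, 23.9 and 22.6, and one of SLC23A1 at 0.6 in sow 4 beside 1.1 on each other array.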

How the results depend on the processing

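Main counts of called solute carrier probe sets were 4, of which 1 was higher and 3 lower with Y-spermatozoa. The replicate block (the sow) gave 9 (4 higher, 5 lower), the random block by sow 9 (2 and 7), of which 5 were shared with the replicate block, the pseudocount of 16 gave 7 (2 and 5), testing only probe sets above background 2 (1 lower), the plain pooled test 2 (1 lower), the deposited scaling 0 higher and 5 lower, the probe sets above the median signal 2 higher and 1 lower, and the trend 2 higher. Leaving out an X-spermatozoa array gave 2 to 8 called (1 to 3 higher, 1 to 7 lower), a Y-spermatozoa array 2 to 8 (0 to 3 and 1 to 5), and a sow, with the block, 6 to 10 (3 to 5 and 3 to 6). Over all probe sets the count of 860 became 1222 with the replicate block and 1461 with the random block. It was 814 with the pseudocount, 865 in the plain pooled test, 902 with the deposited scaling and 819 with the trend. Above the median signal it was 309 of 11999 tested, and above background 551 of 17883. These filters held 82 and 120 members in the same order, so their counts of called members have smaller totals than the main count. Solute carriers that differed between sows numbered 32, and 20 to 34 with a sow left out, the lowest without sow 4. When the hybridisation controls entered as a covariate, the differences of the dim SLC7A7 probe set and of the brighter SLC37A4 probe set turned to 0.039 and -0.046. Of the other values for single probe sets, 261 kept their direction and their side of the threshold, 27 were called only under the alternative and 36 lost the call. The median difference of the members lay between -0.027 and 0.026 with an array or a sow left out. The causes were not tested, except that filters test fewer probe sets and leaving out arrays leaves fewer samples.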
